A study of Mus musculus with 12 samples.

Results

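The cytoplasmic ribosomal protein genes encode the proteins of the small (Rps, Rpsa) and large (Rpl, Rplp) subunits of the cytosolic ribosome. Members were the genes whose symbol has this form and that own a row of the expression table carrying no other symbol, with the brightest such row taken for each gene and pseudogenes left out. This gave 64 members of 22180 genes measured by such rows. Of these, 60 passed the brightness limit (a log2 value above 5.29 in at least 3 arrays) and were tested among 15348 genes, 23 of the small and 37 of the large subunit. Rpl10l, Rpl30, Rpl3l and Rps15 did not pass it.

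RNA came from LSK cells, the bone marrow fraction that lacks lineage antigens, carries SCA1 and cKIT and is enriched in stem and progenitor cells. All mice were older than 20 months and had been crossed back to C57BL/6 for at least 10 generations. The 4 groups of 3 arrays were KO cells given 4 Gy, untreated KO cells, WT cells given 4 Gy and untreated WT cells, where KO lacks Nipa (Zc3hc1), which encodes an F-box-like protein that acts on cyclin B1. Each sample merged cells of 3 mice, and in every group the cells were cultured with 30% serum, IL-3, IL-6 and SCF for 30 min before treatment and harvested 3 h later. The labels used here do not describe how the knockout was made, nor do they say whether irradiated and untreated samples shared pools, so p-values measure the spread between these samples.

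Ribosomal proteins are made in near-equal amounts and are among the most abundant products of growing cells. Their mRNAs begin with a run of pyrimidines, the 5′ terminal oligopyrimidine (TOP) tract, through which mTOR and LARP1 set their translation, so that supply is changed largely at translation and less through the amount of mRNA. When ribosome assembly is disturbed, free RPL5 and RPL11, bound to 5S rRNA, hold back MDM2 and stabilise p53, and loss of a single copy of several of these genes causes Diamond-Blackfan anaemia in humans. Rps27l, a paralog of Rps27, is a known target gene of p53 in human cells.

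Start site sequences are shown for the 4 members past a test below that have a listed promoter (Rps27l, Rpl37, Rplp2 and Rpl11) and for Rps27, the paralog of Rps27l. Each runs 5′ to 3′ on the gene's own strand from 60 bases before to 20 bases after the most upstream listed start, from RefSeq on GRCm38.p6. Capitals mark CTTTCC, searched on the sense strand only as part of a pyrimidine run, or CCGGAAG, a core bound by ETS factors, searched on both strands. The motifs were chosen after the members' sequences had been seen, and both can share bases where they meet. Rps27l lies at chr9:66946026-66946105 on the plus strand, Rps27 at chr3:90213629-90213708 on the minus strand, Rpl37 at chr15:5116553-5116632 on the plus strand, Rplp2 at chr7:141447591-141447670 on the plus strand and Rpl11 at chr4:136053374-136053453 on the minus strand.
Rps27l: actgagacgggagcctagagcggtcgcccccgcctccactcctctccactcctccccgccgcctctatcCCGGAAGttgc
Rps27: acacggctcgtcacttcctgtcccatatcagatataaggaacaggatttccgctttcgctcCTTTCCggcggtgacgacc
Rpl37: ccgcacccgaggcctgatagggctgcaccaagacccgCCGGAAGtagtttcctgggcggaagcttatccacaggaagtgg
Rplp2: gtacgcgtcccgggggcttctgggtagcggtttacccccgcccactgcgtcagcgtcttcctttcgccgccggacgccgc
Rpl11: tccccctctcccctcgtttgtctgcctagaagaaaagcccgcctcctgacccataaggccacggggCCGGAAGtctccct

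Rps27 holds the pyrimidine motif just after its start, whereas the window of its paralog Rps27l holds the ETS core there. Rplp2 has no match to either motif in these 80 bases, although pyrimidines precede its start. Over the 49 members with a listed promoter, CTTTCC lay within the 300 listed bases (250 before to 50 after the start) in 19, or 38.8%, against 16.0% of 27025 genes. CCGGAAG lay there in 22 of the 49, or 44.9%, against 9.93% of all genes and 12.9% of protein-coding ones. From 20 bases before to 30 after the start CTTTCC lay in 18.4% of members, 2.83% of all genes and 2.69% of protein-coding ones. For CCGGAAG these shares were 16.3%, 3.76% and 5.14%. Since the motifs were chosen after these sequences had been seen, the higher shares of the members are no test of enrichment. The hits are matches of letters and not measured binding.

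The medians of the 12 arrays ran from 5.74 to 5.85. With irradiation Zc3hc1 averaged 5.67 ± 0.07 in KO against 7.95 ± 0.27 in WT cells, and without it 5.78 ± 0.04 against 8.29 ± 0.26 (SD, n = 3), with every KO array below every WT array. The p53 targets Cdkn1a and Mdm2 rose by 1.29 and 1.63 on the log2 scale after irradiation, averaged over the genotypes (limma adjusted p = 0.00023 and 4.9e-05). Of the 8 LSK markers, 7 had a row and all were tested. Of the 7 lineage antigens used in the sort that had a row, 5 were under a mean level of 5.29, though Itgam (CD11b) averaged 8.05. Mean levels ran from 5.48 to 11.88 for LSK, 4.95 to 11.60 for granulocyte and 5.54 to 10.52 for monocyte markers. Ribosomal protein genes set 2 arrays of the irradiated KO group apart from each other. On array 3 their median deviation from each gene's mean over all arrays was -0.15 and 5 of the 60 tested members lay above their mean, while on array 1 it was 0.09 and 49 lay above. On the other 10 arrays the median deviation was between -0.06 and 0.07. The median deviation of array 1 over all genes at a level of 10 or more, 0.06, was also the highest of the 12 arrays. The others lay between -0.05 and 0.04. Mdm2 was at 9.63 on array 1 against 10.48 and 10.64 on the other irradiated KO arrays, and Myc at 10.75 against 9.44 and 9.04. Irradiated WT array 1 went the same way by smaller gaps, with Mdm2 at 9.73 against 10.38 and 10.28 and Myc at 10.62 against 9.87 and 9.62. What sets these arrays apart from the others of their groups was not tested. Because the members set arrays 1 and 3 apart, results of irradiated KO cells are also given without both. That leaves 1 irradiated KO array, assumed to vary like the other groups, so a call lost there says little about stability.

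**Figure D1:**
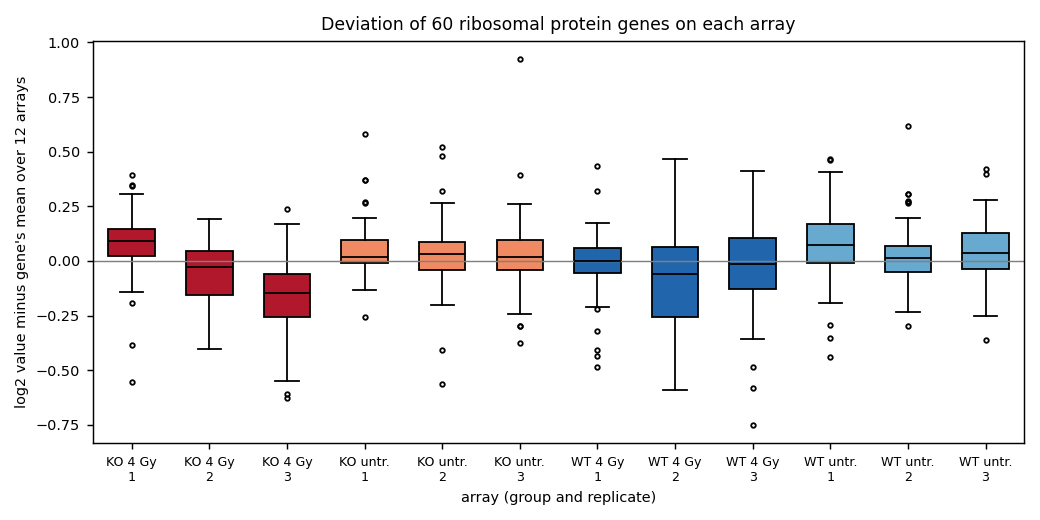
Deviation of the 60 tested members on each of the 12 arrays, as log2 value minus the gene's own mean over all arrays. Boxes span the quartiles with the median as a line, whiskers reach to at most 1.5 box lengths and circles are members beyond them. Irradiated KO array 3 has the lowest median, at -0.15, and irradiated KO array 1 the highest, at 0.09.

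The members spanned nearly the whole range of the table. Mean log2 values over the 12 arrays went from 3.54 (Rpl10l, a paralog of Rpl10 known mainly from testis) to 13.65 (Rps6, the small subunit protein that S6 kinase phosphorylates), with a median of 9.54 against 6.14 for all genes. Of the 64 members, 33 lay above the 90th percentile of all genes (9.05), 18 reached 12 or more, and 11 lay under the median of all genes. A level of 10 or more was reached by 50% of the members tested and by 5.19% of all genes tested. After Rps6 the highest were Rplp1, a protein of the acidic stalk that recruits elongation factors (13.41), and Rpl19 (13.36). The lowest after Rpl10l were Rps15 (4.69) and Rpl3l, the paralog of Rpl3 found in heart and skeletal muscle (4.99).

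Levels of different genes on an array also carry the response of their probes, so a dim row is no measure of a scarce mRNA. The products of Rpl30 and Rps15 are core parts of every ribosome, yet their used rows averaged 5.02 and 4.69. For Rpl30, 2 rows that also carry symbols of predicted genes averaged 12.83 and 12.97, and for Rpl37a the used row averaged 7.41 where a row shared with Mir682 averaged 13.33. Among the members, 24 had more than 1 row. In the 23 with rows of different values, the brightest lay a median of 4.15 above the dimmest on the log2 scale and up to 7.57 above it (Rpl35). A further 12 genes of this kind were measured only by rows of several symbols.

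**Figure D2:**
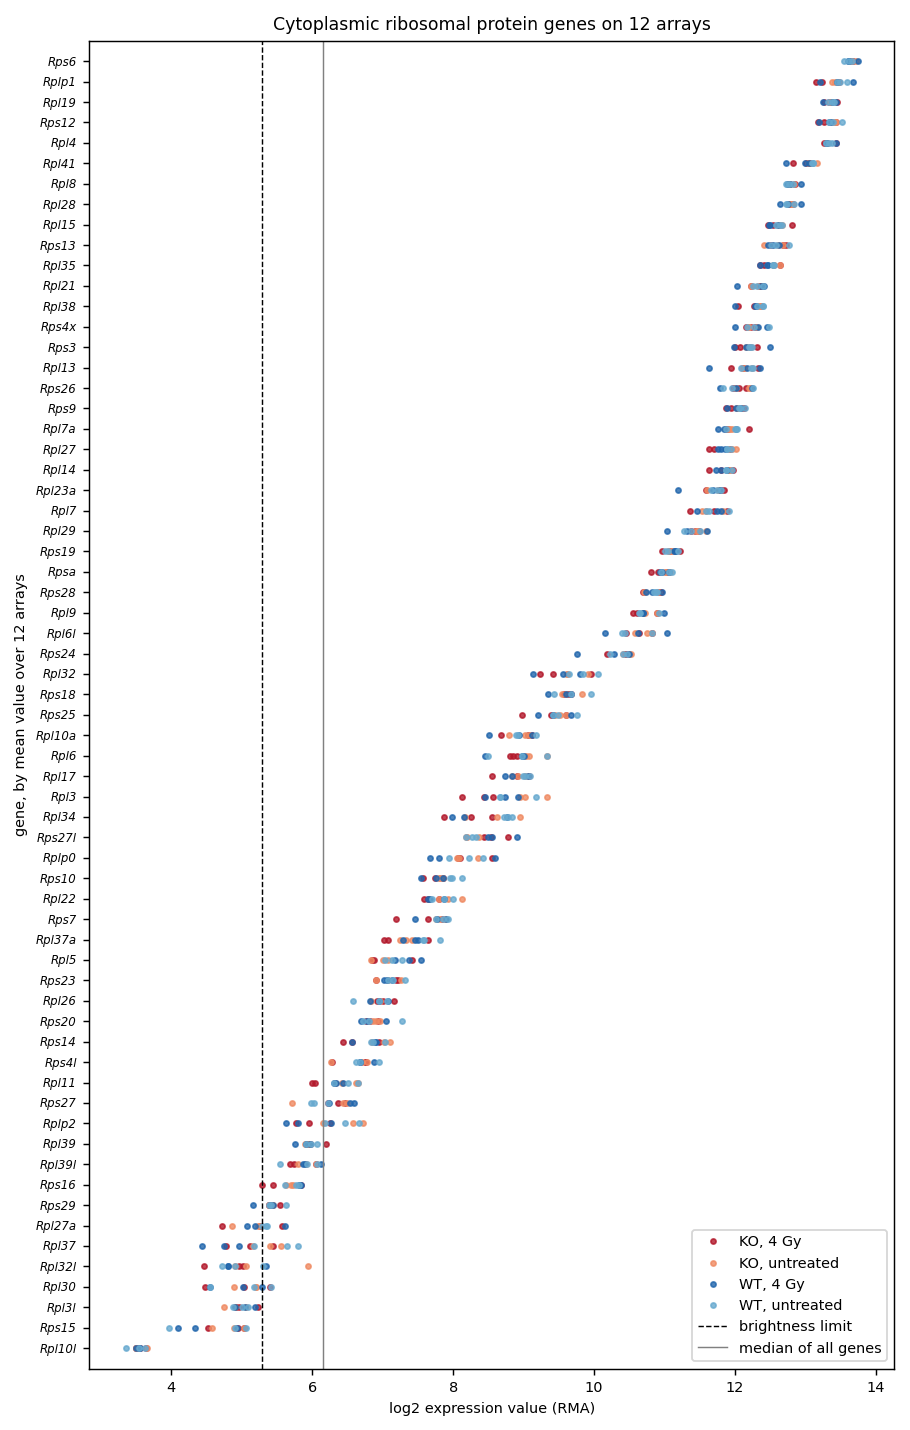
Log2 expression values of the 64 members on all 12 arrays, ordered by mean level, with 1 point per array coloured by group. The dashed line is the brightness limit (5.29) and the grey line the median of all genes (6.14). The points of a gene lie close together at the top, from Rps6 at 13.65 downwards, and spread more below a level of 10.

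Arrays of a group agreed more closely for bright members. The pooled SD within groups was 0.050 for Rps6 and 0.070 for Rpl19. The largest among tested members were 0.385 for Rpl32l, 0.333 for Rpl34, and 0.317 for Rplp0, the scaffold of the acidic stalk. The median was 0.115 over the 30 tested members at a level of 10 or more and 0.202 over the 30 below it. Over all genes at a level of 10 or more it was 0.179, against 0.182 over all genes tested. A change of the same size in log2 value was thus easier to detect in bright members. Whether a given change of mRNA moves values near the top of the table (highest 14.08) as far as lower ones was not tested.

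Few ribosomal protein mRNAs passed the test within 3 h of irradiation, with counts not above the shares over all genes. Changes averaged over the genotypes ran from -0.54 to 0.36. Those called within a genotype were -0.82 (Rpl37 in WT cells) and -0.73 (Rpl3 in KO cells). Averaged over both genotypes, 1 of 60 tested members rose, Rps27l, where 6.9% of all genes tested rose. Another 4 fell, Rpl37, Rplp2, Rpl3 and Rpl11, where 9.6% of all genes fell. Of these, Rpl37 was above the brightness limit on only 5 arrays, 4 of them untreated, so it entered the test mainly through the untreated cells. The median change of the members was -0.07 on the log2 scale, against -0.004 over all genes tested, and 47 of 60 changes were negative against 51.0% of all genes. Members shifted together on an array, so these signs are not independent. Between arrays of a group the members' median deviation had a pooled SD of 0.064. Of the 60 members, 55 had a 95% confidence interval that stayed within a 1.5-fold change in either direction (91.7%, against 77.5% of all genes), and all 30 members at a level of 10 or more did so. None of those 30 passed the test (limma, 0 at an unadjusted p under 0.05), and their changes ran from -0.15 to 0.03. Of all 796 genes at that level 8.29% rose, 9.55% fell and 31.9% had an unadjusted p under 0.05. The median change was -0.04 both for the bright members and for all bright genes. It was negative in 25 of the 30 bright members (83.3%) and in 57.3% of those 796 genes.

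Rps27l was the member that rose. Its log2 values were 8.78, 8.53 and 8.44 in irradiated KO cells, against 8.18, 8.37 and 8.19 in untreated KO cells. WT cells had 8.55, 8.90 and 8.49 after irradiation, against 8.33, 8.26 and 8.19 without it. All 6 irradiated arrays lay above all 6 untreated ones. The average change was 0.36 (SE 0.09, limma adjusted p = 0.020), a 1.29-fold rise, made of 0.34 in KO (adjusted p = 0.172) and 0.39 in WT cells (adjusted p = 0.122). Without untreated WT array 3 the adjusted p was 0.052, and with irradiated KO arrays 1 and 3 left out (1 array remaining) it was 0.065, in a range of 0.0072 to 0.065 over 20 alternative settings.

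Rps27, the paralog of Rps27l, did not pass the test. Its values were 6.22, 6.46 and 6.37 in irradiated KO and 6.43, 5.71 and 6.49 in untreated KO cells, with overlap. In WT cells they were 6.59, 6.24 and 6.53 after irradiation and 5.98, 6.22 and 6.02 without it, with no overlap. The average change was 0.26 (SE 0.13, adjusted p = 0.215). A brighter row shared with Rps27rt (level 11.33) gave -0.18, so the sign for this gene depends on the row.

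Rpl37, a zinc-binding protein of the large subunit, had the largest fall of the members on average and in WT cells. Its values were 5.44, 4.78 and 5.12 in irradiated KO and 5.56, 5.40 and 5.15 in untreated KO cells, which overlap. They were 4.75, 4.96 and 4.43 in irradiated WT and 5.65, 5.80 and 5.17 in untreated WT cells, which do not. In KO cells the change was -0.26 (adjusted p = 0.552). It was the only member called in WT cells without a block, at -0.82 (SE 0.21, limma adjusted p = 0.040), where 2.13% of all genes rose and 2.7% fell. The average change was -0.54 (adjusted p = 0.024), a call lost without irradiated KO array 2, untreated KO array 1 or 2, irradiated WT array 3 or untreated WT array 2 (adjusted p up to 0.064). Its mean level of 5.18 is under the brightness limit. It lay above that limit on 5 arrays, 4 of them untreated, and on 0 irradiated WT arrays, so it entered the test mainly through the group in which it was higher. The WT call was lost in 9 of 20 alternative settings, with adjusted p between 0.0075 and 0.169. It was lost without 7 single arrays, namely irradiated KO array 3, untreated KO arrays 1 and 2, irradiated WT arrays 1 and 3 and untreated WT arrays 1 and 2. Among these were the fits without irradiated WT array 3 (-0.68, adjusted p = 0.160) and without untreated WT array 2 (-0.69, adjusted p = 0.169).

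Rpl3, which lies near the peptidyl transferase centre, was the only member called in KO cells. Its values were 8.56, 8.43 and 8.12 in irradiated KO against 9.33, 9.02 and 8.94 in untreated KO cells, with no overlap. They were 8.93, 8.45 and 8.73 in irradiated WT against 8.67, 8.66 and 9.17 in untreated WT cells, with overlap. The change in KO cells was -0.73 (SE 0.18, limma adjusted p = 0.035), where 2.74% of all genes rose and 3.2% fell. In WT cells it was -0.13 (adjusted p = 0.743), and the average was -0.43 (adjusted p = 0.039). The other rows of Rpl3 gave average changes of 0.23 (level 8.42) and -0.11 (level 5.61), and with the mean of all its rows the KO change was -0.28 (adjusted p = 0.169). With irradiated KO arrays 1 and 3 left out (1 array remaining) it was -0.67, a size close to that over all arrays, with an adjusted p of 0.187. The adjusted p ran from 0.015 to 0.187 over 21 settings. The KO call was also lost without irradiated KO array 2 or 3 or any 1 untreated KO array, 5 in all (adjusted p up to 0.137). The average call was lost without irradiated KO array 2 or 3, untreated KO array 1 or 2, irradiated WT array 2 or 3, or untreated WT array 3 (adjusted p up to 0.095).

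Rplp2, the partner of Rplp1 in the acidic stalk, had values of 6.26, 5.95 and 5.77 in irradiated KO and 6.57, 6.73 and 6.16 in untreated KO cells. In WT cells these were 5.79, 6.27 and 5.62 after irradiation and 6.67, 6.47 and 6.18 without it. Irradiated and untreated groups overlapped in both genotypes. Same-numbered WT arrays, which deviated together over all genes, differed by -0.88, -0.20 and -0.56. The average change was -0.52 (SE 0.14, adjusted p = 0.028). It was -0.50 in KO and -0.54 in WT cells, neither past the test (adjusted p = 0.194 and 0.160). With the replicate number as a block the WT change passed (adjusted p = 0.045), which makes 2 members called in WT cells in that fit, and with the block set within each genotype Rplp2 did not pass there and 1 member was called. That average call was lost without 8 single arrays, which were irradiated KO 2 and 3, untreated KO 1 and 2, irradiated WT 1 and 3 and untreated WT 1 and 2 (adjusted p up to 0.072). A row shared with Snora52 (level 8.35) gave -0.32. Rplp1 and Rplp0, the other stalk genes, gave -0.10 and -0.05 (adjusted p = 0.522 and 0.873).

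Rpl11 and Rpl5 carry 5S rRNA into the large subunit and bind MDM2. For Rpl11 the values were 6.33, 6.00 and 6.03 in irradiated KO and 6.65, 6.61 and 6.42 in untreated KO cells, with no overlap. In WT cells they overlapped, at 6.34, 6.30 and 6.43 after irradiation and 6.51, 6.65 and 6.31 without it. Its average change was -0.29 (SE 0.09, adjusted p = 0.046), and that call was lost in 12 of 20 alternative settings (adjusted p 0.015 to 0.113). They include the fits without irradiated KO array 2 or 3, untreated KO array 1 or 2, any 1 irradiated WT array, and untreated WT array 1 or 2. Rpl5 did not pass the test, at 0.15 on average (SE 0.11, adjusted p = 0.416), and a brighter row shared with Rpl5-ps2 gave -0.46. Rpl34, also of the large subunit, gave -0.42 (adjusted p = 0.108), and passed in 4 of 20 alternatives. These were the fits blocked on replicate number (adjusted p = 0.034) and on that number within genotype (0.035), and those without untreated KO array 3 (0.050, just under the threshold) or irradiated WT array 2 (0.035), in a range of 0.034 to 0.236 over all 20.

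**Figure D3:**
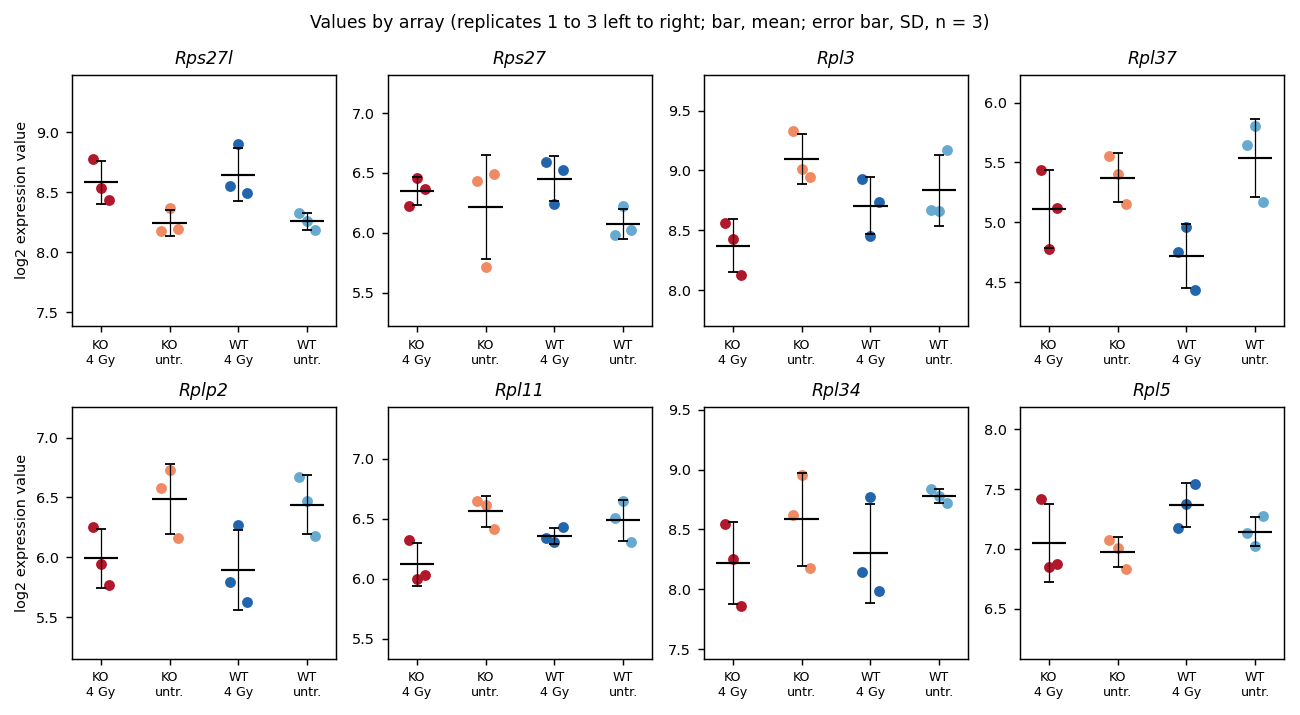
Log2 values by array of the 5 members past the test in an irradiation contrast and of Rps27, Rpl34 and Rpl5, with the group mean and SD (n = 3). Every panel spans the same height, centred on the gene's mean. Rps27l lies higher in both irradiated groups than in the untreated ones, Rpl3 is lower in irradiated KO cells, and Rpl37 is lower in irradiated WT cells.

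No other member passed a test of irradiation as fitted without a block. In KO cells the members' median was -0.07 (all genes -0.02), with 6 at an unadjusted p under 0.05, or 10.0% against 19.9% of all genes. In WT cells it was -0.10 (all genes 0.004), with 4, or 6.67% against 19.8%. These contrasts use different arrays, and the KO one depends on its array set. Without irradiated KO array 1 the KO median was -0.13 and 3 members were called, and without array 3 it was -0.02 and 0 were called. Calls over all genes moved the same way, at 10.2% without array 1 and 3.47% without array 3, against 5.94% with all arrays. Without both arrays the median was -0.08, with 0 members and 3.34% of all genes called, from 1 remaining irradiated KO array. Small subunit members had a median of -0.07 in KO and -0.08 in WT cells, and large subunit members -0.08 and -0.10.

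**Figure D4:**
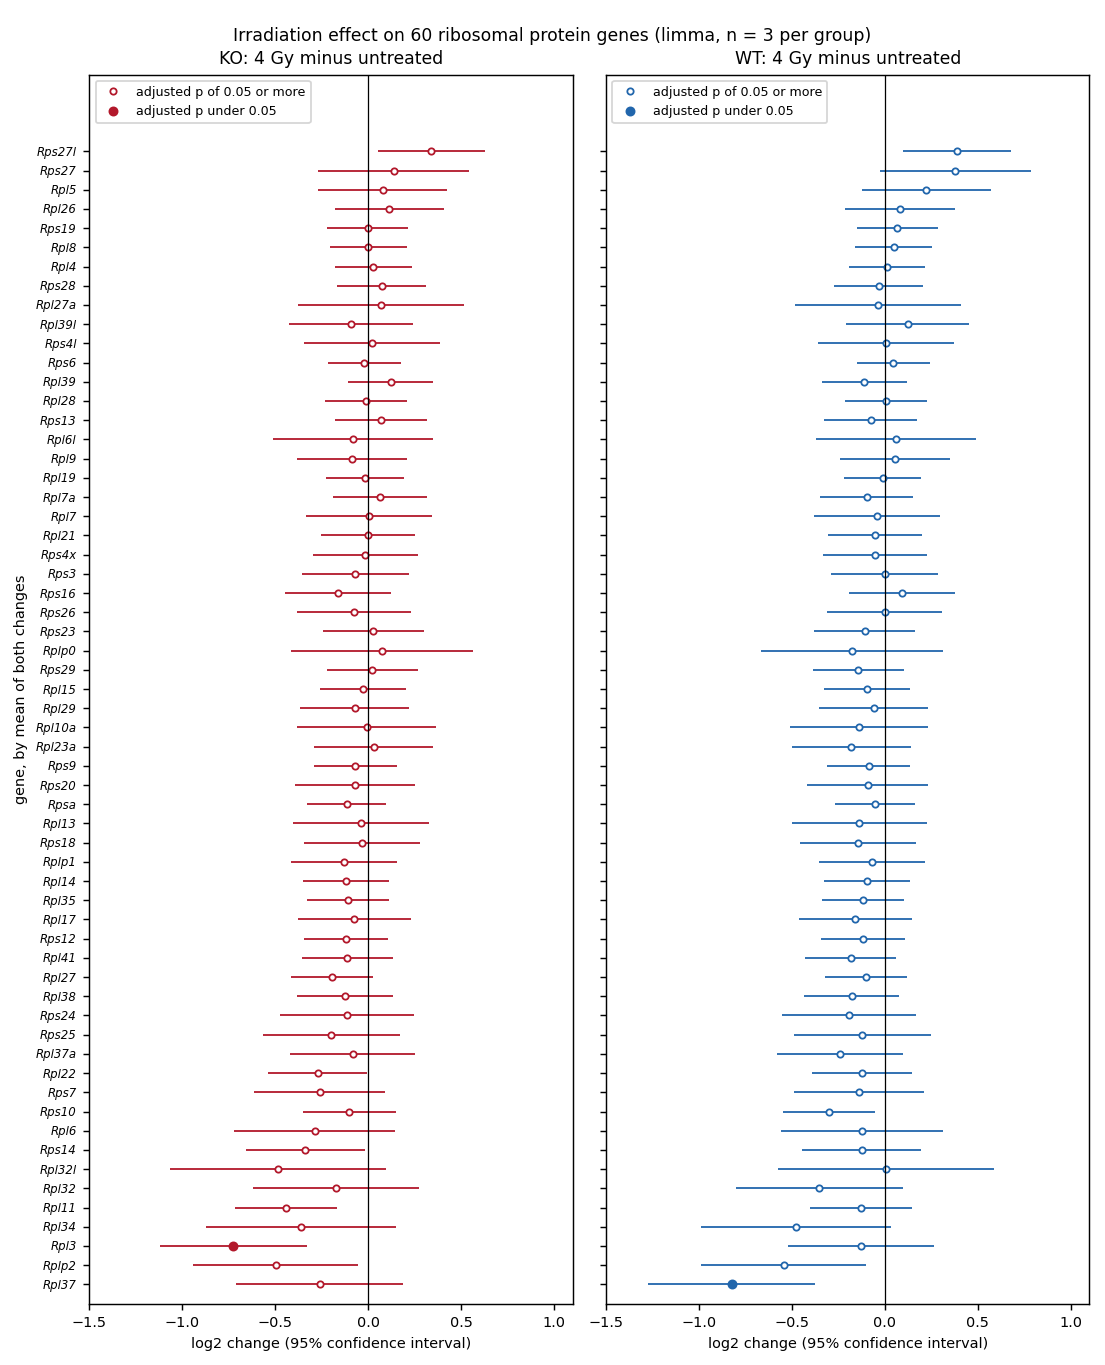
Log2 change after 4 Gy in KO (left) and WT cells (right) for the 60 tested members, with 95% confidence intervals from limma, ordered by the mean of both changes. Filled points passed the test, Rpl3 in KO cells (-0.73) and Rpl37 in WT cells (-0.82). Rpl37 was above the brightness limit on 0 irradiated WT arrays. Most points lie slightly left of 0.

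Members tied to human disease or to p53 gave few calls, at counts near the background of 6.9% higher and 9.6% lower over all genes, so these are no result about the lists. Of 14 tested Diamond-Blackfan anaemia genes 0 rose and 1, Rpl11, fell on average (median -0.06). Rps19, the gene most often mutated in that disease, gave 0.03 (95% interval -0.12 to 0.19). It averaged 11.09 ± 0.13 in KO cells after irradiation and 11.09 ± 0.04 without it, and 11.15 ± 0.01 in WT cells after irradiation and 11.08 ± 0.10 without it (SD, n = 3). Among 10 tested genes whose proteins are known to bind MDM2, Rps27l rose and Rpl11 fell (median -0.06). Rps14, lost in the 5q- syndrome, gave -0.23 and Rpl22, whose loss affects lymphocyte development in mice, -0.20, and neither passed (adjusted p = 0.156 and 0.147). Rpl26, which binds p53 mRNA, gave 0.10 (adjusted p = 0.552).

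Rps6, Rps3, Rpsa and Rps4x, all bright members of the small subunit, gave differences of 0.01, -0.04, -0.08 and -0.03. Their 95% intervals together spanned -0.24 to 0.17. Of the paralogs with restricted use, Rpl39l, known from testis, gave 0.02 and Rps4l 0.01, while Rpl39 itself gave 0.01, none past the test. Rpl3l and Rpl10l stayed under the brightness limit in all groups.

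No ribosomal protein gene passed a test of genotype. In irradiated cells 0 of 60 members differed between KO and WT (limma, 1 at an unadjusted p under 0.05), where 0.00652% of all genes, which is Zc3hc1 alone, passed. In untreated cells 0 members passed (0 at an unadjusted p under 0.05), again against 0.00652%, and for the average of both doses 0 members passed (2 at an unadjusted p under 0.05) against 0.00652%. Median differences, KO minus WT, were -0.01 in irradiated and -0.02 in untreated cells. For the average of both doses every tested member had a 95% interval within 1.5-fold, from -0.50 at the lowest bound to 0.49 at the highest.

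By smallest p, the members nearest to a genotype difference in irradiated cells were Rps16 (-0.30), Rpl5 (-0.32) and Rpl37 (0.40), each with an adjusted p of 0.999. In untreated cells they were Rpl37a (-0.33), Rps10 (-0.20) and Rpl3 (0.26), each with an adjusted p of 1.0. The values of Rps16, of the small subunit, were 5.84, 5.44 and 5.29 in irradiated KO against 5.80, 5.84 and 5.82 in irradiated WT cells, so 1 KO array lay level with the WT ones. Those of Rpl37a were 7.42, 7.24 and 7.33 in untreated KO against 7.81, 7.58 and 7.58 in untreated WT cells, which do not overlap. They come from the used row, which is far dimmer than the row shared with Mir682. The genotype difference of that brighter row is not given here.

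Nor did the irradiation response of any member differ between genotypes past the test. For the interaction 0 of 60 members passed (limma, 1 at an unadjusted p under 0.05), as did 0% of all genes tested. The smallest p-values belonged to Rpl3, whose change in KO cells was 0.60 lower than in WT cells (difference -0.60, SE 0.26, adjusted p = 1.0), to Rpl37 (difference 0.56) and to Rpl11 (difference -0.31). Thus Rpl3 was called in KO and Rpl37 in WT cells, but neither was shown to respond differently. The interaction is the least precise contrast, and 37 of 60 members had an interval within 1.5-fold.

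Genes that make or regulate ribosomes gave other counts in the same arrays. Of 30 tested chaperones of ribosomal proteins and subunit assembly factors, 14 fell and 1 rose on average, with a median of -0.36, where 9.6% of all genes fell and 6.9% rose. Rrp12, a factor of subunit export in yeast, fell by 0.63, Dimt1, an 18S rRNA methyltransferase, by 0.69, and Nop56, of the box C/D snoRNP, by 0.48, while Riok3, a kinase of 40S maturation, rose by 0.51. In KO cells 4 of the 30 fell and 1 rose (all genes 3.2% and 2.74%), and in WT cells 6 fell and 0 rose (all genes 2.7% and 2.13%). Among the chaperones of single ribosomal proteins, Grwd1, which binds RPL3, fell by 0.35 and Heatr3, which serves RPL5, fell by 0.49, whereas Tsr2, which serves RPS26, gave -0.25 (adjusted p = 0.169).

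Of 71 tested mitochondrial ribosomal protein genes, which form the separate ribosome of that organelle, 0 rose and 19 fell on average, with a median of -0.30, where 6.9% of all genes rose and 9.6% fell. The cytoplasmic members gave 1 and 4 of 60 and -0.07. Of 20 tested translation genes with a TOP tract outside the ribosome, 1 rose, Vim (0.36, adjusted p = 0.0095), and 0 fell, with a median of -0.02. Eef1a1 and Eef2, the elongation factors, gave 0.05 and 0.15. Among 25 genes that set ribosome supply, 5 fell and 2 rose. Myc fell by 1.15, Mycn by 0.80 and Polr1b, a subunit of RNA polymerase I, by 0.78, while the mTORC1 inhibitors Sesn2 and Ddit4 rose by 1.74 and 1.00. The differences between these lists were not tested.

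In a mixed population, fewer cells of a type and less RNA per cell cannot be told apart. Of 6 tested erythroid markers 4 fell on average after irradiation and 0 rose, where 9.6% of all genes tested fell and 6.9% rose. Their summed linear level ran from 1245 to 1818 in irradiated KO and 1715 to 2001 in untreated KO cells, and from 1198 to 1767 in irradiated WT and 1587 to 1657 in untreated WT cells. All of these markers averaged above 5.29. Of the 7 tested LSK markers 1, Flt3, fell in both genotypes, where 3.2% of all genes fell in KO and 2.7% in WT cells. Among mast cell and basophil markers 0 of 4 tested passed, but their median change in KO cells was 0.86, and their summed level was 1227 to 1957 in irradiated KO against 762 to 974 in untreated KO cells, with no overlap. In WT cells their median change was 0.08 and the sums overlapped, at 445 to 1563 after irradiation and 455 to 1241 without it. B cell markers, 0 of 4 called, had sums of 342 to 1840 in irradiated KO against 433 to 1542 in untreated KO cells. In WT cells the B cell sums were 304 to 451 after irradiation and 329 to 641 without it. The median B cell marker difference, KO minus WT, was 0.83 in irradiated and 0.68 in untreated cells. In both contrasts 0 of these markers and 0.00652% of all genes were called. Of the 5 tested plasmacytoid and dendritic markers 1 rose, Itgax, and 1 fell, Irf8, on average, against the same shares of 6.9% and 9.6%. On average 0 markers passed in the granulocyte, monocyte, megakaryocyte, T and NK cell, endothelial and lineage lists. Their part in the changes of ribosomal protein genes was not tested.

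Rows of the same gene did not always give the same change. Rps18 had rows that gave average irradiation changes of 0.35, -0.29 and -0.09, the last from the used row at a level of 9.63. For Rpl41, the shortest protein of the ribosome, the used row gave -0.15 at a level of 13.02 and the dimmest row -0.54 at 6.81. Of all 161 rows with a ribosomal protein symbol, the 96 under a level of 10 had a median change of -0.12 and the 65 at 10 or more one of -0.08, where all rows of the table had medians of 0.002 and -0.03 at those levels. When every row was tested, 1 used row was called, that of Rps27l (adjusted p = 0.049), where 5.2% of all rows were called in either direction.

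**Figure D5:**
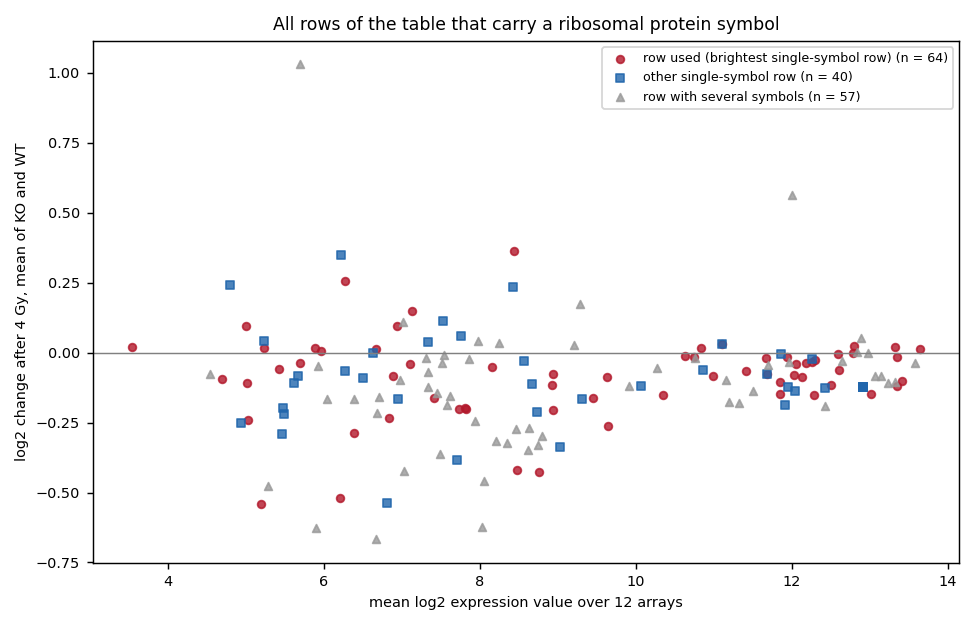
Average log2 change after 4 Gy against mean log2 level for the 161 rows that carry a ribosomal protein symbol, split into rows used (red circles), other rows with 1 symbol (blue squares) and rows with several symbols (grey triangles). Changes narrow around 0 above a level of 10. The bright row near 0.56 is shared with the snoRNA gene Snord34.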

How the data were processed

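The authors' deposited values were log2 expression values, 1 per array and row (probe set), for 41345 rows and 12 arrays. The submitters' processing notes name the package oligo and RMA, which corrects background, normalizes by quantiles and summarises probes. Their versions and the build behind the array annotation are not stated there. No value was rescaled. Rows were named through the platform annotation, 23521 with 1 symbol and 1814 with several. Each gene took its brightest single-symbol row and was tested if above the 40th percentile of the table in at least 3 arrays. The number of arrays limits the precision, and an exact permutation test of 3 against 3 cannot go below p = 0.1.

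Contrasts were fitted with limma 3.58.1 in R 4.3.3 (lmFit, eBayes) over all 12 arrays without a block, with two-sided p-values adjusted by Benjamini-Hochberg over all 15348 genes and a threshold of 0.05. The script was tested on simulated data. Same-numbered WT arrays deviated together (correlations 0.491, 0.476 and 0.420 across genes), although the labels do not pair them. Same-numbered KO arrays did not all (0.474, -0.239 and -0.122). Instead, irradiated KO array 2 deviated with untreated KO array 3 (0.517), and irradiated KO array 3 with untreated KO array 2 (0.438). The main fit used no pairing. Both block fits go by replicate number, so they do not follow these KO matches, and no fit by matched KO arrays was run. Same-numbered arrays of different genotypes also correlated. Untreated KO arrays 1 to 3 gave 0.187, 0.316 and 0.152 with irradiated WT and 0.161, 0.233 and 0.102 with untreated WT arrays. Irradiated KO arrays gave 0.341, -0.289 and 0.284 with irradiated WT and 0.149, -0.229 and 0.186 with untreated WT arrays. What the replicate number stands for was not tested. The members and gene lists were chosen with earlier results of these data known. Named genes are members past a test or of smallest p, listed members of known function, those of extreme level or spread, and list genes past a test. The limits of level 10 and 1.5-fold, Rpl30, Rps15, Rpl37a's second row, Rps18 and Rpl41 were chosen after values were seen. Shorter motifs (CTTT, TTCC) were looked at first and not kept. Alternatives were other scalings, rows, limits, blocks, priors and sets of arrays.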

Additional observations from a re-analysis of the deposited data

Results flagged for a closer look

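Rows with several symbols stand outside the comparisons above, since their signal cannot be given to a single gene. In a fit of all 41345 rows, 2 of the 57 such rows with a ribosomal protein symbol passed the test for the average irradiation effect. Of all rows 5.2% passed in either direction, so this count is no result about rows of this kind. The row shared by the snoRNA gene Snord34 and Rpl13a was higher after irradiation, by 0.565 (SE 0.128, limma adjusted p = 0.028). Its values were 12.27, 12.41 and 12.13 in irradiated KO against 11.99, 11.66 and 11.13 in untreated KO cells. WT cells had 12.26, 12.22 and 12.40 after irradiation against 11.83, 11.91 and 11.79 without it. Both pairs of groups were free of overlap. Of the 9 rows that carry a snoRNA symbol it was the only 1 called, where 5.2% of all rows were.

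The row shared by Rps13, Gm15483 and Rps13-ps4 was lower, by -0.424 (SE 0.096, adjusted p = 0.028), at a level of 7.02. The row used for Rps13 itself, at a level of 12.59, gave -0.005.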

How the results depend on the processing

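The members' medians in the KO, WT and average irradiation contrasts were negative in every alternative, at -0.126 to -0.018, -0.135 to -0.049 and -0.101 to -0.042, and no called result changed sign. Counts were less stable. For the average irradiation effect 5 members were called as reported, 3 with cyclic loess, 2 with irradiated KO arrays 1 and 3 left out (chosen after seeing the data, with 1 array remaining in that group), 1 when all rows were tested (likewise) and 1 to 7 without single arrays, where calls over all genes were 2532 as reported and 1859 to 3414 without single arrays. For KO cells 1 was called as reported, 0 with cyclic loess, with the mean of a gene's rows, with only the arrays compared or without irradiated KO arrays 1 and 3, and 0 to 3 without single arrays (all genes 911, and 392 to 1573). For WT cells 1 was called as reported, 0 with array medians subtracted or only the arrays compared, 2 with the replicate block and 0 to 1 without single arrays (all genes 742, and 314 to 1040). The median genotype difference in irradiated cells ran from -0.049 to 0.072 and the median interaction from -0.057 to 0.063 without single arrays, the extremes coming from irradiated KO arrays 1 and 3. With the replicate number as a block 6 members were called for the average irradiation effect, Rpl34 among them, and no call reported above was lost. All genotype and interaction counts stayed at 0 in the alternatives run. Average calls were lost for Rpl11 in 12 of 20 alternatives, Rpl3 in 10, Rplp2 in 9, Rpl37 in 5 and Rps27l in 2, and the KO call of Rpl3 in 9 of 21. The scaling and array alternatives kept the set of genes tested. The cause of these shifts was not tested. Rows near background limit what can be seen of dim members.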
